A study of Mus musculus with 6 samples.

Results

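The contractile and stress-fibre genes of myofibroblasts were examined in floated adipocytes of mice with floxed alleles of the Hippo kinases *Lats1* and *Lats2*, with or without an adipocyte Cre. They were 10 genes named by symbol (*Acta2*, *Tagln*, *Cnn1*, *Cnn2*, *Myl9*, *Tpm1*, *Tpm2*, *Tpm4*, *Actn1* and *Vcl*) among the 37384 gene symbols of the deposited count table, and all 10 were found and passed the count filter that kept 15674 genes. The list did not respond as a block. *Tagln*, *Cnn2*, *Acta2* and *Tpm4* had between 2.95 and 6.38 times the L1L2-FF level in libraries labelled L1L2-AKO, *Tpm1* and *Actn1* had 1.72 and 1.49 times, *Vcl* lay above the controls without passing the test, and *Myl9*, *Tpm2* and *Cnn1* overlapped between the genotypes.

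A myofibroblast is a fibroblast-like cell that makes matrix and pulls on it. It does so through stress fibres, bundles of actin filaments that slide on myosin and are tied to the matrix at focal adhesions. αSMA, the actin isoform encoded by *Acta2*, is the usual marker of such fibres, and tropomyosins, calponins and transgelin bind along the filaments while α-actinin and vinculin hold them together and anchor them. Several of these genes are also abundant in vascular smooth muscle and pericytes, and many are read by the factor SRF with its MRTF cofactors or by TEAD with YAP and TAZ. LATS1/2 phosphorylate and restrain YAP and TAZ.

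RNA came from inguinal scWAT of male mice at postnatal day 7. Control mice (L1L2-FF) were homozygous for floxed *Lats1* and *Lats2* (Lats1f/fLats2f/f) without Cre, and L1L2-AKO mice carried the same alleles with AdipoqCre, a Cre under the *Adipoq* promoter, which is active in adipocytes. There were 3 libraries per genotype, each from the floated adipocytes of 4 pooled mice, so the spread between libraries is that between pools. Flotation does not remove every other cell. The library totals ranged from 30548473 to 32107917 counts. *Lats1* fell from 82.9 ± 9.90 to 40.2 ± 1.16 CPM (SD, n = 3 libraries each), but *Lats2* was 76.4 ± 8.68 CPM in L1L2-FF and 119 ± 20.6 CPM in libraries labelled L1L2-AKO (SD, n = 3 each), against its label. The *Lats2* difference had an edgeR Benjamini-Hochberg adjusted p of 0.0278 and reached 0.104 with a library left out, and the counts cover the whole gene, not the floxed part alone. *Lats2* also shares 41.2% of its 50-base stretches with *Gm49361*, an overlapping gene on the same strand, so its level is uncertain. Every direction below is therefore that from L1L2-FF to libraries labelled L1L2-AKO. Levels are CPM, counts scaled to a common library size with TMM factors, and a gene was called when edgeR's quasi-likelihood test gave a Benjamini-Hochberg adjusted p under 0.05 over all 15674 genes.

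Of the 10 genes, 6 were called, all higher in libraries labelled L1L2-AKO, and 4 were not. Over all tested genes 16.5% were called, 9.28% higher and 7.18% lower. In 7 of the 10 genes every library labelled L1L2-AKO lay above every L1L2-FF library, where 18.0% of all tested genes were separated in that direction and 36.4% in either direction. The median log2 fold change of the 10 genes was 0.68, against -0.02 over all tested genes. Summed over the 10 genes, the level was 895, 789 and 964 CPM in L1L2-FF and 1838, 2346 and 2462 CPM in libraries labelled L1L2-AKO, replicates 1 to 3. In bulk RNA, more cells of a type cannot be told apart from more RNA per cell.

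**Figure D1:**
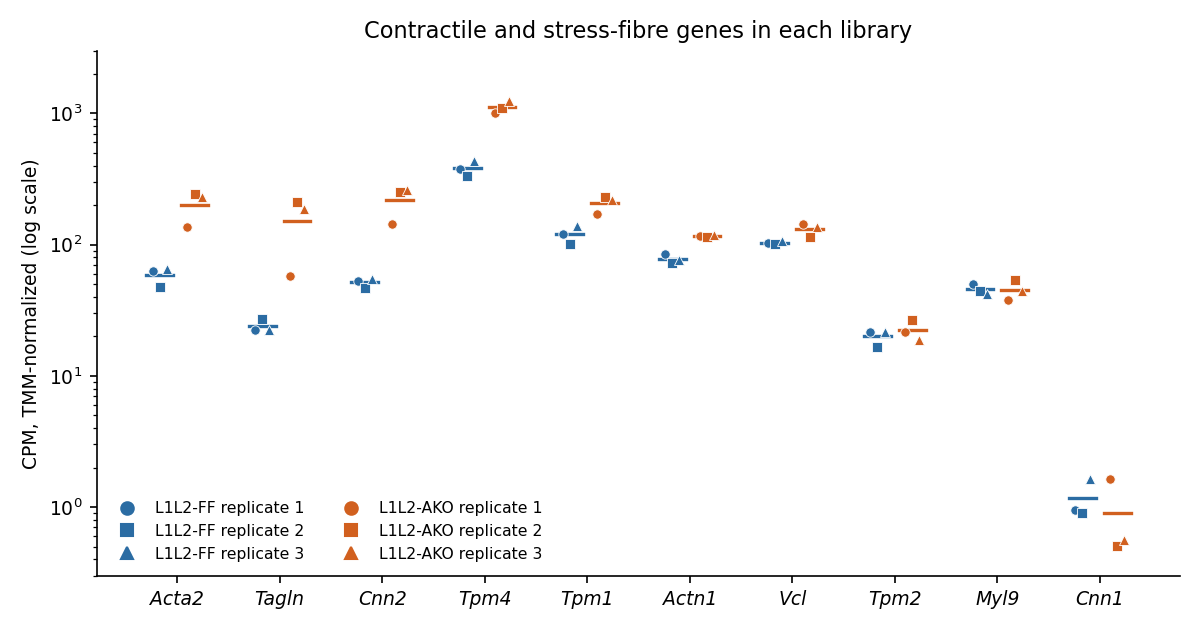
CPM after TMM scaling, on a log axis, of each of the 10 genes in each library, with blue for L1L2-FF, orange for L1L2-AKO, marker shapes for replicate numbers and a bar at the mean. The orange points lie above all blue points in *Acta2*, *Tagln*, *Cnn2*, *Tpm4*, *Tpm1*, *Actn1* and *Vcl* and mix with them in *Tpm2*, *Myl9* and *Cnn1*, and replicate 1 of L1L2-AKO is the lowest orange point in the first 5 of these genes.

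*Acta2*, the αSMA gene (chromosome 19 of mm10, 34241090 to 34255590, minus strand, GENCODE M21) was at 63.1, 47.9 and 64.7 CPM in L1L2-FF replicates 1 to 3 and at 135, 242 and 229 CPM in those labelled L1L2-AKO. The lowest of the latter was above the highest control, and replicate 1 stood well below the other two. The gene rose by a log2 fold change of 1.78 (95% interval 1.24 to 2.32, edgeR, Benjamini-Hochberg adjusted p = 0.00231). The cytoplasmic actins set the scale for this change, since *Actb* and *Actg1* form most of the actin of non-muscle cells. *Actb* had a log2 fold change of 0.56 (edgeR, Benjamini-Hochberg adjusted p = 0.0576) and *Actg1* of 0.05 (adjusted p = 0.845), neither of them called. Per kilobase of exon, *Acta2* made up 2.83 ± 0.304% of the CPM of the 6 actin genes in L1L2-FF and 6.91 ± 1.70% in libraries labelled L1L2-AKO (SD, n = 3 each), and *Actb* made up 69.0 ± 0.284% and 72.6 ± 1.22%. αSMA transcripts thus stayed a small part of the actin pool in both genotypes. *Actg1* shares 37.4% of its 50-base stretches with transcripts of other genes, so its level is uncertain.

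*Tagln*, which encodes the actin-binding protein transgelin (SM22), had the largest fold change of the 10 genes and the widest spread. Its level was 22.2, 26.9 and 22.5 CPM in L1L2-FF and 57.5, 212 and 188 CPM in libraries labelled L1L2-AKO. Replicate 1 was again the lowest, and the mean of the other two was 3.48 times its level. The log2 fold change was 2.67 (95% interval 1.68 to 3.67, edgeR, Benjamini-Hochberg adjusted p = 0.00544). The coefficient of variation was 11.1% over the L1L2-FF libraries and 54.5% over those labelled L1L2-AKO. *Tagln* lies on chromosome 9 (45929619 to 45936058, minus strand) and shares 1241 exonic bases, 62.4% of its own, with the annotated gene *Gm48529* on the opposite strand, for which no count was used here, and 108 with *Pcsk7*, also opposite. The strand setting of the counting is not given in the sources used here, so reads of *Tagln* and of these genes may not be told apart there. *Pcsk7* had a log2 fold change of 0.29 that was not called.

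The calponins, which bind along actin filaments, went apart. *Cnn1* encodes basic calponin, typical of differentiated smooth muscle, and *Cnn2* encodes the form found also in non-muscle cells. *Cnn2* (chromosome 10, 79988584 to 79996062, plus strand) was at 52.8, 46.9 and 55.1 CPM in L1L2-FF and at 143, 251 and 262 CPM in libraries labelled L1L2-AKO. All of the latter were more than 2 times any control, and the log2 fold change was 2.08 (95% interval 1.56 to 2.61, edgeR, Benjamini-Hochberg adjusted p = 0.00119). *Cnn1* (chromosome 9, 22099216 to 22109630, plus strand) was scarce throughout, with 30, 29 and 51 counts in L1L2-FF and 54, 16 and 16 counts in libraries labelled L1L2-AKO. The genotypes overlapped, and the log2 fold change of -0.37 had a 95% interval from -1.56 to 0.83, so that at these counts neither a rise nor a fall of *Cnn1* was detectable. The interval lies below the log2 fold change of 2.08 of *Cnn2*. The third calponin, *Cnn3*, had a log2 fold change of 0.03. Per kilobase, *Cnn2* went from 32.3 ± 2.81% to 65.5 ± 11.1% of the CPM of the 3 calponin genes and *Cnn3* from 67.1 ± 3.05% to 34.3 ± 10.9% (SD, n = 3 each), while *Cnn1* held 0.659 ± 0.252% and 0.272 ± 0.239%.

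Tropomyosins lie in the groove of the actin filament and set which partners can bind it. *Tpm4* was the most abundant of the 10 genes in every library, both in CPM and per kilobase. It was at 376, 331 and 434 CPM in L1L2-FF and at 1011, 1101 and 1247 CPM in libraries labelled L1L2-AKO. The genotypes were far apart, with coefficients of variation of 13.6% and 10.7%, and the log2 fold change was 1.56 (95% interval 1.18 to 1.94, edgeR, Benjamini-Hochberg adjusted p = 0.00106). *Tpm4* (chromosome 8, 72134975 to 72153142, plus strand) shares 11.7% of its 50-base stretches with the annotated gene *Gm7809*, for which no count was used here. *Tpm1*, expressed in muscle and non-muscle cells, was at 121, 101 and 139 CPM in L1L2-FF and at 171, 230 and 218 CPM in libraries labelled L1L2-AKO. It rose by a log2 fold change of 0.78 (95% interval 0.40 to 1.16, edgeR, Benjamini-Hochberg adjusted p = 0.0167). This was the only call among the 10 genes that was lost when a library was left out: edgeR's Benjamini-Hochberg adjusted p was 0.0708 without L1L2-FF replicate 1, and 0.0726 and 0.0622 without L1L2-AKO replicates 2 and 3. *Tpm2*, prominent in smooth muscle and slow muscle fibres, was at 21.7, 16.6 and 21.6 CPM in L1L2-FF and at 21.4, 26.7 and 18.9 CPM in libraries labelled L1L2-AKO. Its log2 fold change was 0.16 (95% interval -0.24 to 0.56, edgeR, Benjamini-Hochberg adjusted p = 0.591). *Tpm3*, the fourth tropomyosin gene and not one of the 10, was at 185 ± 4.10 CPM in L1L2-FF and 290 ± 32.8 CPM in libraries labelled L1L2-AKO (SD, n = 3 each). It rose by 0.65 on the log2 scale (edgeR, Benjamini-Hochberg adjusted p = 0.0115), and 4 of the 6 fits that left out a library kept the call. Per kilobase, *Tpm4* made up 75.5 ± 1.05% of tropomyosin CPM in L1L2-FF and 85.3 ± 1.76% in libraries labelled L1L2-AKO (SD, n = 3 each), and the shares of *Tpm1*, *Tpm2* and *Tpm3* were lower there, *Tpm1* and *Tpm3* although their own levels were higher.

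**Figure D2:**
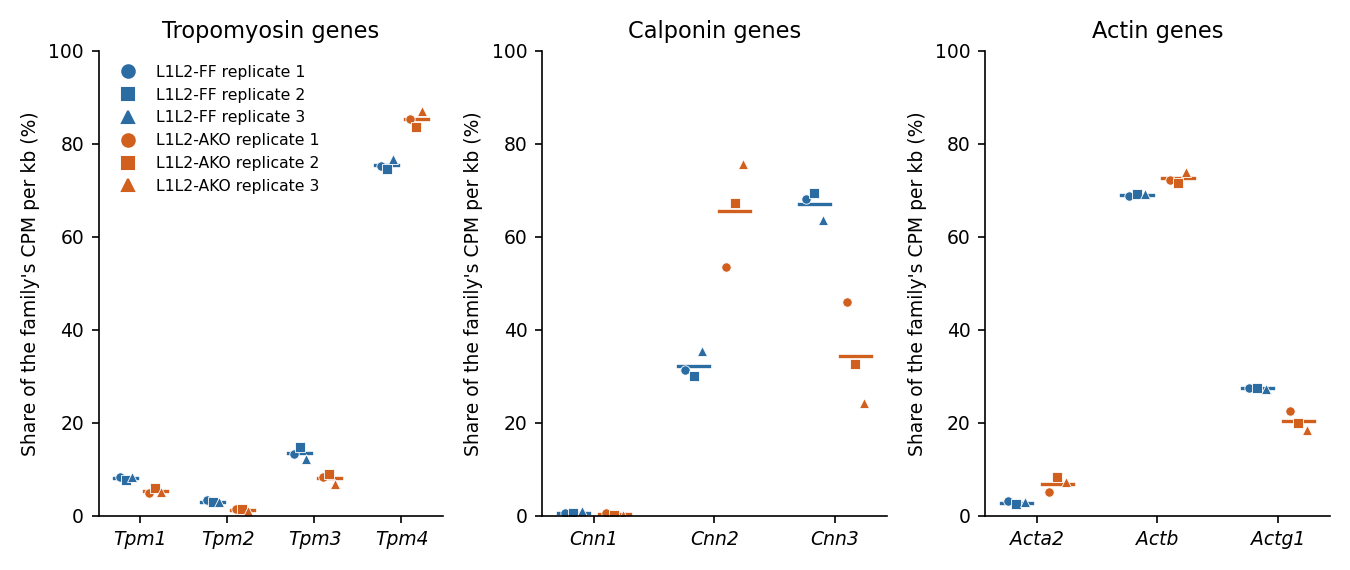
Share of each gene in the CPM per kilobase of exon of its family (percent, 1 panel each for 4 tropomyosin genes, 3 calponin genes and the 3 most abundant of 6 actin genes) in each library, with blue for L1L2-FF, orange for L1L2-AKO and a bar at the mean. *Tpm4* holds 74.6% to 76.6% in L1L2-FF and 83.5% to 87.1% in L1L2-AKO, *Cnn2* 30.1% to 35.4% and 53.5% to 75.5%, and *Acta2* 2.51% to 3.11% and 5.05% to 8.37%.

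*Myl9* encodes a regulatory light chain of smooth muscle and non-muscle myosin II, whose phosphorylation starts contraction. Its level was 49.9, 44.3 and 42.4 CPM in L1L2-FF and 37.9, 53.5 and 44.5 CPM in libraries labelled L1L2-AKO. The groups overlapped fully, with a log2 fold change of -0.01 and a 95% interval from -0.34 to 0.33, so a change as large as that of *Acta2* lay outside the interval. *Myl12a*, a close relative that encodes a non-muscle regulatory light chain, went up from 340 ± 21.7 to 740 ± 110 CPM (SD, n = 3 libraries), by 1.12 on the log2 scale (edgeR, Benjamini-Hochberg adjusted p = 0.00278). *Myl12a* shares 16.2% of its 50-base stretches with *Myl12b*, so the split of reads between those paralogs is uncertain.

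The remaining pair tie filaments together and to the membrane. *Actn1* encodes the α-actinin that spaces filaments within the bundle, and it was at 85.0, 72.8 and 76.3 CPM in L1L2-FF and at 117, 115 and 118 CPM in libraries labelled L1L2-AKO. The latter differed from each other by a coefficient of variation of 1.44%. *Actn1* (chromosome 12, 80167547 to 80260371, minus strand) rose by a log2 fold change of 0.58 (95% interval 0.34 to 0.82, edgeR, Benjamini-Hochberg adjusted p = 0.00913). *Actn4*, the other non-muscle α-actinin and the more abundant of the pair per kilobase, had a log2 fold change of 0.45 that was not called (edgeR, Benjamini-Hochberg adjusted p = 0.0580). *Vcl* encodes vinculin, which links actin to talin at focal adhesions. It was at 102, 101 and 106 CPM in L1L2-FF and at 143, 114 and 137 CPM in libraries labelled L1L2-AKO. These did not overlap, but *Vcl* did not pass the threshold (log2 fold change 0.35, 95% interval without adjustment 0.07 to 0.62, edgeR, Benjamini-Hochberg adjusted p = 0.0879). *Vcl* (chromosome 14, 20929398 to 21033676, plus strand) has 25.5% of its exonic bases in common with *Ap3m1* on the opposite strand, and *Ap3m1* had a log2 fold change of 0.51 (adjusted p = 0.0516 in the same edgeR test).

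**Figure D3:**
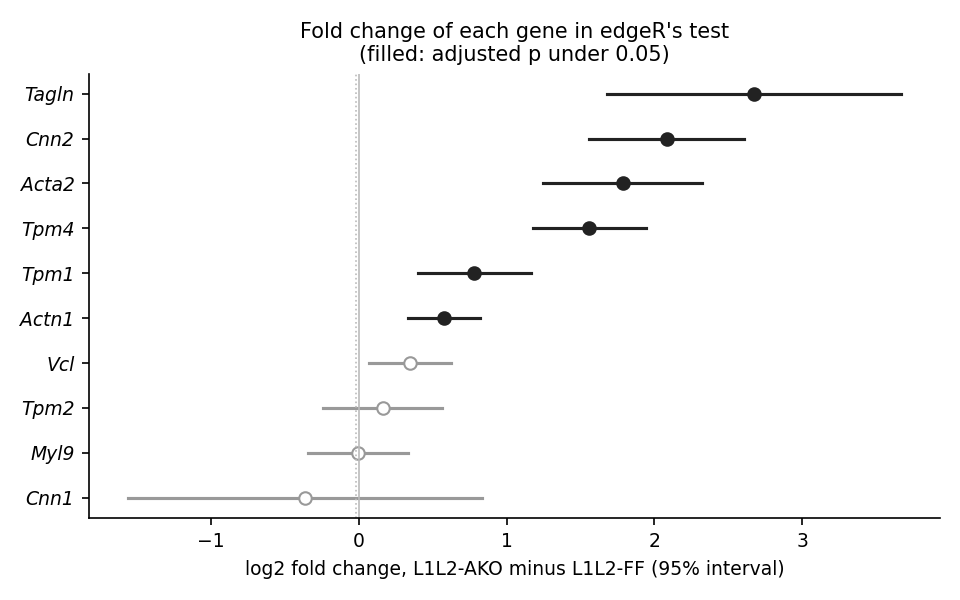
Log2 fold change of L1L2-AKO over L1L2-FF (x axis) of each of the 10 genes with its 95% interval from edgeR's fit, where filled black points passed an adjusted p of 0.05 and open grey points did not, and the dotted line marks the median of all tested genes at -0.02. *Tagln*, *Cnn2*, *Acta2* and *Tpm4* have intervals wholly above 1, and the intervals of *Tpm2*, *Myl9* and *Cnn1* include 0.

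Set in order of level per kilobase of exon, *Tpm4* led in L1L2-FF with 173 ± 23.5 CPM per kb (SD, n = 3), followed by *Myl9* with 39.2, *Acta2* with 26.7, *Cnn2* with 20.98, *Tpm1* with 18.5, *Actn1* with 14.1, *Vcl* with 12.6, *Tagln* with 12.0, *Tpm2* with 6.87 and *Cnn1* with 0.426 CPM per kb. The libraries of *Acta2* and *Cnn2*, of *Cnn2* and *Tpm1*, and of *Vcl* and *Tagln* overlapped, so the order within those pairs is not settled by the spread. In the libraries labelled L1L2-AKO the order was *Tpm4* (508 ± 54.2), *Acta2* (91.9 ± 26.5), *Cnn2* (88.9 ± 26.6), *Tagln* (76.6 ± 41.8), *Myl9* (39.0 ± 6.75), *Tpm1* (31.8 ± 4.79), *Actn1* (21.1 ± 0.304), *Vcl* (16.0 ± 1.85), *Tpm2* (7.68 ± 1.38) and *Cnn1* (0.328 ± 0.231) in CPM per kb (SD, n = 3 each). There *Acta2*, *Cnn2*, *Tagln* and *Myl9* each overlapped with the next in the order. *Tagln* moved from the eighth place to the fourth, and *Myl9* from the second to the fifth at an almost equal level. These lengths join all annotated exons of a gene, so a gene with many transcripts, such as *Tpm1* with 21, may have a higher level per kilobase of the transcripts in use.

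Ratios of a pair of genes within a library do not depend on how libraries are scaled, and 8 such ratios were compared. In 7 of them the genotypes did not overlap. The log2 ratio of *Acta2* to *Actb* was -4.75, -5.07 and -4.88 in L1L2-FF and -4.13, -3.38 and -3.62 in libraries labelled L1L2-AKO, a difference of 1.19. *Acta2* to *Actg1* differed by 1.70 and *Tagln* to its non-muscle paralog *Tagln2* by 2.04, both toward the gene of the myofibroblast list. The ratio of *Tagln* to *Tagln2* was barely separated, at -2.70 in L1L2-FF replicate 2 and -2.69 in L1L2-AKO replicate 1. Against *Tpm4*, *Tpm1* differed by -0.78 and *Tpm2* by -1.41, *Cnn1* to *Cnn2* differed by -2.53, and *Myl9* to *Myl12a* by -1.13, all toward the second gene. The ratio of *Actn1* to *Actn4* overlapped between the genotypes and differed by 0.14 (two-sided exact permutation test, p = 0.4). Each of the other 7 gave p = 0.1 in the two-sided exact permutation test, the smallest that 3 libraries against 3 allow, and 0.114 after Benjamini-Hochberg adjustment over the 8, so none could pass 0.05 in this design.

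The libraries labelled L1L2-AKO differed among themselves in a way that some of these genes shared. Replicate 1 was the lowest of the 3 in *Acta2*, *Tagln*, *Cnn2*, *Tpm1*, *Tpm4* and *Myl9*, and the mean of replicates 2 and 3 was 1.74 times its level for *Acta2*, 1.79 for *Cnn2*, 1.31 for *Tpm1*, 1.29 for *Myl9* and 1.16 for *Tpm4*. *Actn1* was level at 1.00, and *Vcl* and *Cnn1* were highest in replicate 1, at ratios of 0.880 and 0.327. Without that library the log2 fold change of *Tagln* was 3.07, that of *Cnn2* 2.31 and that of *Acta2* 2.00, and the same 6 genes were called. Over all 6 libraries, the log2 CPM of *Acta2* had a Pearson r of 0.995 with *Cnn2*, 0.982 with *Tpm1*, 0.973 with *Tpm4*, 0.965 with *Tagln*, 0.943 with *Actn1*, 0.720 with *Vcl*, 0.494 with *Tpm2*, 0.192 with *Myl9* and -0.570 with *Cnn1*, values that hold the genotype difference and are given as a description. Among 10059 other genes whose mean log2 CPM was 3 or more, the 5 most like *Acta2* were *Sap18*, *Tsku*, *Anxa1*, *Nucb2* and *Cald1*, with r from 0.995 to 0.998, and 8.49% of these genes had an r over 0.9.

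The wider actomyosin machinery was read from 4 further lists with 51 genes in all that are not among the 10. All 51 were tested, 14 were called higher and 2 lower, where 9.28% and 7.18% of all tested genes were. In place of 16 calls there were 9 without L1L2-FF replicate 1, and 7 and 10 without L1L2-AKO replicates 2 and 3.

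In the list of actin cross-linkers and focal adhesion genes, 11 of 25 were higher and 0 lower (median log2 fold change 0.46). The largest rises among those called were *Palld* (palladin, a stress-fibre scaffold) with 1.46, *Lima1* (an actin-bundling LIM protein) with 1.13 and *Tln1* (talin, which couples integrins to vinculin) with 0.99. *Tln1* went from 366 ± 27.6 to 725 ± 61.5 CPM (SD, n = 3 each), beside a *Vcl* that was not called. *Flna*, the most abundant of the list with *Actn4*, had a log2 fold change of 0.46 (edgeR, Benjamini-Hochberg adjusted p = 0.0590). The number called higher was 6 without L1L2-FF replicate 1, and 4 and 6 without L1L2-AKO replicates 2 and 3.

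Of 13 genes of the smooth muscle contractile apparatus, 2 were higher, 0 lower and 11 were not called, which is 15.4% called, near the 16.5% of all tested genes, and the median log2 fold change was 0.04. The pair called were *Cald1* (caldesmon, made in muscle and non-muscle forms), at 197 ± 30.8 and 546 ± 104 CPM (SD, n = 3 each), and *Synpo2* (synaptopodin 2, an actin-bundling protein), with log2 fold changes of 1.47 and 1.64. *Synpo2* kept its call in 2 of the 6 fits that left out a library, and the list had 1 call when L1L2-FF replicate 1 or 3 or L1L2-AKO replicate 2 or 3 was left out. *Myh11*, the smooth muscle myosin heavy chain that defines that cell type, was at 45.6 ± 5.46 and 46.7 ± 13.2 CPM (SD, n = 3 each), and its log2 fold change of 0.04 had a 95% interval from -0.45 to 0.52. *Smtn*, *Lmod1* and *Des*, other smooth muscle genes, had log2 fold changes of -0.36, -0.35 and -0.62, none of them called. *Myocd*, the cofactor that drives smooth muscle differentiation, was scarce, at 0.371 and 0.627 CPM. Its log2 fold change of 0.76 was not called, though the genotypes did not overlap. Of the rest of the list, also not called, *Actg2* and *Pln* had log2 fold changes of -1.06 and -0.63. *Mylk*, *Synm*, *Casq2* and *Cnn3* had 0.25, 0.16, 0.14 and 0.03. The 11 genes not called were chosen for mention after their values were seen.

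Among the remaining lists, edgeR called 0 of 5 actin isoforms other than *Acta2* (median log2 fold change -1.06, the value of *Actg2*). At an unadjusted p under 0.05 there were 3, DESeq2's Wald test called 3 and limma-voom 2. The isoforms *Actg2*, *Acta1* and *Actc1*, with log2 fold changes of -1.06, -1.67 and -1.79, were scarce. In L1L2-FF they averaged 2.37, 8.25 and 1.26 CPM, against 1739 and 685 CPM for *Actb* and *Actg1*, which had 0.56 and 0.05. Of 10 genes of non-muscle myosin II, its light chains and its phosphatase, 1 was higher, *Myl12a*, and 2 were lower (median log2 fold change 0.09). The latter were *Myh14*, a non-muscle myosin heavy chain, which fell from 9.07 ± 1.05 to 1.15 ± 0.150 CPM (SD, n = 3 each), and *Ppp1r12b*, a myosin phosphatase subunit, which fell by 0.57 on the log2 scale and kept its call in 1 of the 6 fits without a library. *Myl6*, the essential light chain, had a log2 fold change of 0.01. *Myh9* and *Myh10*, the other heavy chains, averaged 414 and 112 CPM in L1L2-FF and 466 and 72.3 CPM in libraries labelled L1L2-AKO. Their log2 fold changes were 0.17 and -0.63, neither of them called.

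**Figure D4:**
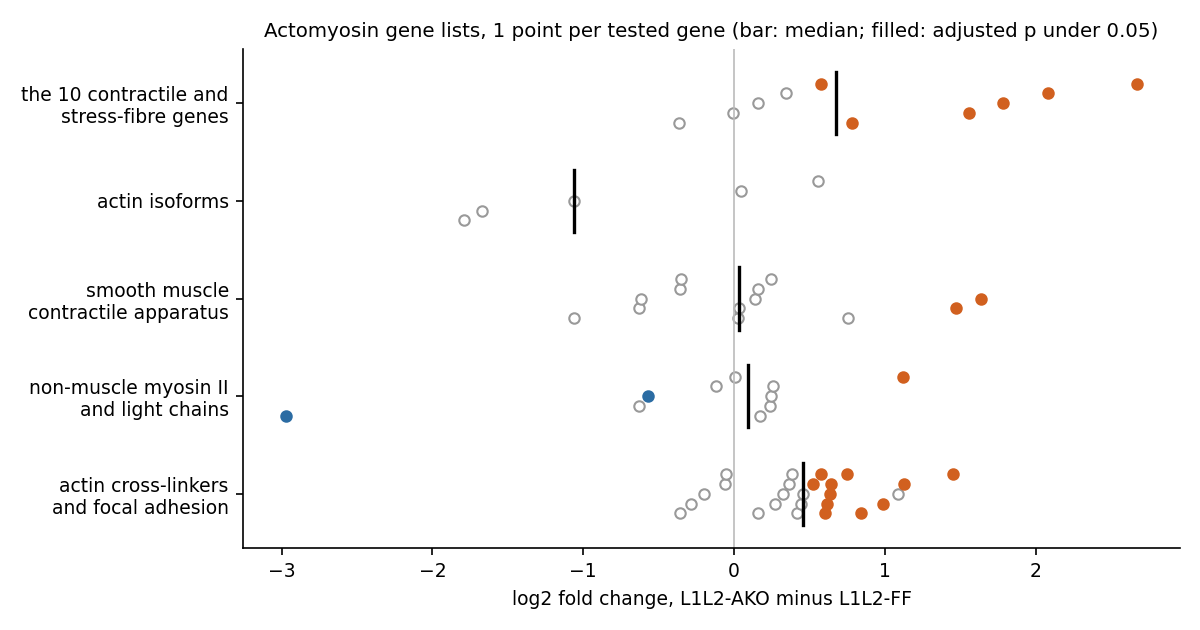
Log2 fold change of L1L2-AKO over L1L2-FF (x axis) for every tested gene of 5 lists (rows), with filled orange points for genes called higher, filled blue points for genes called lower, open points for genes not called and a black bar at the list's median. The median is 0.68 for the 10 genes, 0.46 for cross-linkers and focal adhesion genes and 0.04 for the smooth muscle contractile apparatus.

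Both strands of the promoters were searched for the motifs of a pair of factors known for these genes, the CArG box bound by SRF and the motif GGAATG bound by TEAD. The windows run from 250 bases before to 50 bases after each RefSeq start on GRCm38.p6, the assembly of mm10, and 9 of the 10 genes had 1 window each. *Tagln* had none. A CArG box in its usual form, CC and GG around a run of A or T bases, was in the windows of 3 of the 9 genes. These were *Cnn2*, *Vcl* and *Myl9*, and 1.63% of all 32851 windows held such a box. The TEAD motif was in 3 of the 9, *Acta2*, *Tpm1* and *Vcl*, and in 14.7% of all windows. The genes with a CArG box in these windows were 1 called higher and 2 not called, and those with the TEAD motif 2 called higher and 1 not called. The matches are shown on the strand of the gene, with the motif in capitals, since they set these genes of unequal response side by side.
*Cnn2*, chr10:79988534-79988563, plus strand, box 56 bases before the start: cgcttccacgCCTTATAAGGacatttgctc
*Vcl*, chr14:20929161-20929190, plus strand, box 227 bases before the start: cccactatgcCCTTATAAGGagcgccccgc
*Myl9*, chr2:156775293-156775322, plus strand, box 161 bases before the start: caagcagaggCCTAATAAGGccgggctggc
*Acta2*, chr19:34255504-34255529, minus strand, motif 146 bases before the start: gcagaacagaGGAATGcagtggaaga
*Tpm1*, chr9:67049254-67049279, minus strand, motif 56 bases before the start: gctgtcctaaGGAATGcggtcgcccc
*Vcl*, chr14:20929245-20929270, plus strand, motif 143 bases before the start: ccctcccttgGGAATGggggcggggc
*Cnn2* and *Vcl* share the same 10 bases of the box. By GENCODE M21 the *Cnn2*, *Vcl* and *Myl9* matches lie upstream of every annotated start, and those of *Acta2* and *Tpm1* lie in an exon of a transcript that starts further upstream. The whole *Tpm4* window and most of those of *Acta2*, *Tpm1* and *Tpm2* lie downstream of the first GENCODE start. Bases before that start were thus searched little or not at all in these genes. A match is a string of letters and no evidence of binding, and no match says only that the letters are not in this window.

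Other cells in the floated fraction carry these genes, so lists of their markers were read beside them. The labelled cell type was present by its markers, as the 10 mature adipocyte genes summed to between 18605 and 21107 CPM in L1L2-FF and between 13722 and 16994 CPM in libraries labelled L1L2-AKO. Of them 0 were higher and 3 lower (5 lower without L1L2-FF replicate 2, median log2 fold change -0.58), *Retn*, *Adipoq* and *Pparg*, with log2 fold changes of -1.84, -1.26 and -0.59, and the abundant *Fabp4* and *Plin4* had -0.30 and 0.00. Of 11 mural cell genes, which mark the pericytes and smooth muscle that also express *Acta2* and *Tagln*, 1 was higher and 3 were lower (median log2 fold change -0.28). *Notch3* rose by a log2 fold change of 0.90, and *Higd1b*, *Rgs5* and *Cspg4* had -2.12, -1.22 and -0.95. *Rgs5*, a pericyte gene, was at 550 ± 112 and 236 ± 78.8 CPM (SD, n = 3 each). *Pdgfrb*, likewise a pericyte gene, went the other way without being called. It was at 193, 181 and 129 CPM in L1L2-FF and at 216, 252 and 222 CPM in libraries labelled L1L2-AKO. That was a rise of 0.45 on the log2 scale (edgeR, Benjamini-Hochberg adjusted p = 0.109). *Kcnj8* and *Abcc9*, also mural genes and not called, had log2 fold changes of -0.92 and -0.87. Without overlap between the genotypes, 2 of the 11 mural genes were higher and 3 lower. Of all tested genes, 18.0% were separated upward and 36.4% in either direction. DESeq2's Wald test, no count filter and the replicate block each called 1 mural gene higher and 5 lower. The 11 genes summed to between 1577 and 2005 CPM in L1L2-FF and between 1545 and 1716 CPM in libraries labelled L1L2-AKO, none of them at 0, and *Mcam*, abundant with *Rgs5*, had a log2 fold change of 0.21. The mural calls numbered 2 without L1L2-FF replicate 1, and 6 and 1 without L1L2-AKO replicates 1 and 2. The part of mural cells in the rise of *Acta2* and *Tagln* was not tested.

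Macrophages also make *Tpm4*, *Cnn2* and *Actn1*, and most of their markers were, as these genes were, higher in libraries labelled L1L2-AKO. Within L1L2-FF the library with the highest macrophage sum, replicate 2, was the lowest in *Tpm4*, *Cnn2* and *Actn1*. This order of 3 libraries is given as a description and was not tested. Of 12 macrophage genes 10 were higher and 0 lower (median log2 fold change 1.48), with the largest rises in *Fcgr1*, *Mrc1* and *C1qb* at log2 fold changes of 2.34, 1.84 and 1.67 and a rise of 1.24 in the abundant *Csf1r*. They summed to between 228 and 437 CPM in L1L2-FF and between 867 and 970 CPM in libraries labelled L1L2-AKO, none of them at 0. Their part in the rise of *Tpm4*, *Cnn2* and *Actn1* was not tested. Replicate 1 of L1L2-AKO, which was low in *Acta2*, *Tagln* and *Cnn2*, had 868 CPM of macrophage markers against 970 and 867 CPM in replicates 2 and 3, likewise a description that was not tested.

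Skeletal muscle, platelets and epithelium were checked for the same reason. Of 13 skeletal muscle genes 9 were tested and 0 called by edgeR (4 at an unadjusted p under 0.05, 4 by DESeq2's Wald test and 1 by limma-voom), the sums were 78.8 to 120 and 43.1 to 68.2 CPM, and the most abundant, *Myl1* and *Acta1*, had log2 fold changes of -0.73 and -1.67. *Tnnc2* and *Myh3* were close to 0 in every library. Of 7 platelet genes 5 were tested and 1 was higher, *Pf4*, which macrophages also express, with 13.4 ± 3.30 and 24.3 ± 5.35 CPM (SD, n = 3 each), while *Itga2b* had a log2 fold change of -0.18. The *Pf4* call was lost without L1L2-FF replicate 1 or 3 and without L1L2-AKO replicate 2 or 3. None of the 10 endothelial genes was called by edgeR (2 at an unadjusted p under 0.05, 1 by DESeq2's Wald test, 0 by limma-voom and 4 with the replicate number as a block), with *Cdh5* and *Pecam1* at -0.29 and -0.47. Of 10 adipose progenitor genes 0 were higher and 3 lower (median log2 fold change -0.61). The latter were *Pi16*, *Clec3b* and *Cd55*, with log2 fold changes of -0.88, -0.72 and -0.68, and *Dcn* and *Cd34* had -0.72 and -0.53. *Dpp4* and *Ly6a*, not called, had 0.09 and -0.01. Without L1L2-FF replicate 1, or without L1L2-AKO replicate 2, 0 progenitor genes were called, without L1L2-AKO replicate 3 there was 1 and without L1L2-FF replicate 3 there were 6. The epithelial list had 2 tested genes of 8. Its 5 keratins were not tested and lay between 0 and 1.74 CPM, the highest being *Krt18* in L1L2-FF replicate 3, *Cdh1* had a log2 fold change of -1.77 that was not called, and *Oxtr*, the oxytocin receptor of myoepithelium and smooth muscle, went up from 18.8 ± 6.53 to 301 ± 123 CPM (SD, n = 3 libraries), by 4.00 on the log2 scale (edgeR, Benjamini-Hochberg adjusted p = 7.9e-04).

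**Figure D5:**
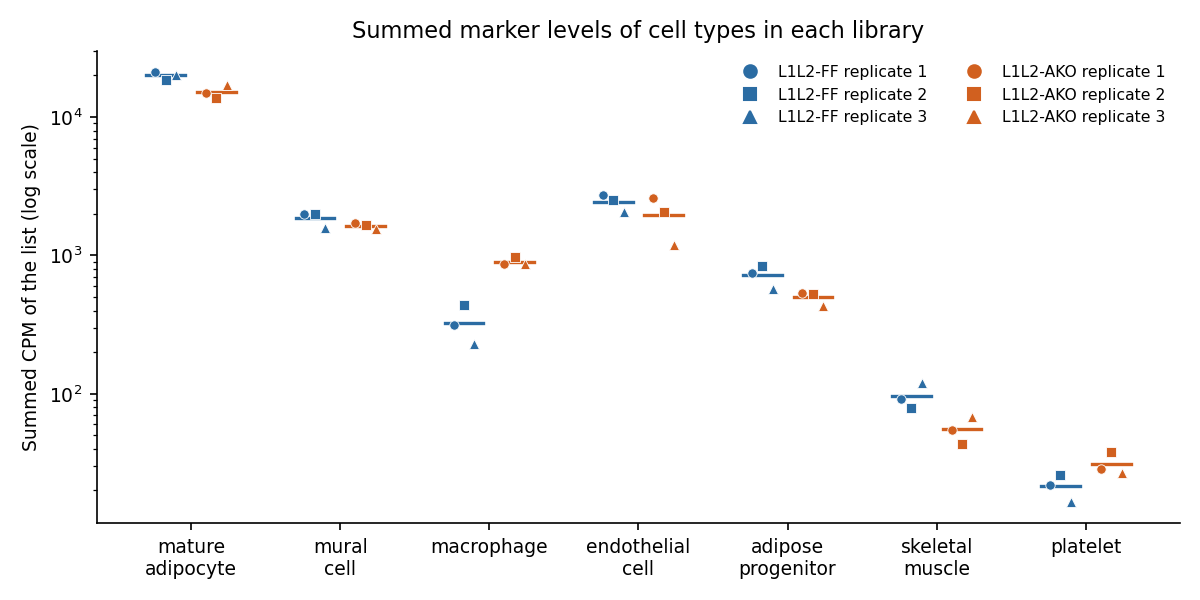
Summed CPM (log axis) of the marker genes of 7 cell types in each library, with blue for L1L2-FF, orange for L1L2-AKO, marker shapes for replicate numbers and a bar at the mean. Macrophage sums are higher in all 3 orange libraries (867 to 970 against 228 to 437 CPM), and mural and endothelial sums overlap between the genotypes.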

How the data were processed

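Each of the 6 libraries (3 L1L2-FF, 3 L1L2-AKO) was made from floated adipocytes of 4 pooled mice, and groups and replicate numbers were taken from the labels. The authors captured mRNA with oligo(dT), read paired ends on a BGISEQ-500, aligned them to mm10 with HISAT2 2.1.0 and used SAMtools and StringTie 1.3.5 (versions per the submitters' processing notes). The authors deposited whole-number counts for each gene symbol, not normalized. The counting program, annotation and strand setting are not given in the sources used here. No row lacked a gene name, and depth was even (30548473 to 32107917).

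The counts were filtered with edgeR's filterByExpr (minimum count 10, minimum total 15), which left out 21710 symbols, scaled by TMM and tested two-sided by the quasi-likelihood method of edgeR across all 15674 genes with Benjamini-Hochberg adjustment (R 4.3.3, edgeR 4.0.16). Intervals come from the fit's standard error and are not adjusted. Ratios used log2 CPM with a prior count of 2. Exon lengths, positions and shared 50-base stretches come from GENCODE M21, and promoters from a RefSeq table of GRCm38.p6. Alternatives were DESeq2 size factors, library size alone, upper-quartile scaling, DESeq2 1.42.0, limma-voom (limma 3.58.1), other filters, a replicate block, a prior count of 0.5 and each library left out. The test was first checked on simulated counts. Summaries used pandas 2.3.3 under Python 3.11.15, and drawing used matplotlib 3.10.9.

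The members and lists were chosen with earlier results of these data known. Named beside the 10 genes are up to 3 genes per direction with the largest called changes and the 2 most abundant of each list, the partners of the ratios, *Lats1* and *Lats2*, and the 5 genes most like *Acta2*. The genes *Cnn3*, *Tpm3*, *Pcsk7*, *Ap3m1*, *Gm7809*, *Gm48529*, *Gm49361*, *Krt18*, *Myl12b*, *Tnnc2*, *Myh3*, *Actc1*, *Pdgfrb*, *Kcnj8*, *Abcc9*, *Myh9*, *Myh10*, *Dpp4* and *Ly6a* were named after their values were seen. So were the genes of the smooth muscle list that were not called. Nothing says that a replicate shares animals with another, and p-values measure the spread between pools. Another planned gene list is not reported here.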

Additional observations from a re-analysis of the deposited data

How the results depend on the processing

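The 6 calls among the 10 genes stood at 6 under DESeq2's size factors, library size alone, upper-quartile scaling, DESeq2's Wald test, limma-voom, no count filter, at least 10 counts in every library and the replicate block, and at 5 to 6 with a library left out. Of 140 fits of a member under an alternative, 132 kept direction and side of the threshold, 3 lost the *Tpm1* call and 5 turned the sign of *Myl9*, which was never called: its log2 fold change was 9.35e-04 with DESeq2's size factors, 0.0025 with DESeq2's Wald test and 0.06, 0.11 and 0.01 without L1L2-FF replicate 1, L1L2-AKO replicate 1 and L1L2-AKO replicate 3, within a range of -0.14 to 0.11 over the fits that left out a library. The cause was not tested. Over all genes 2580 were called, 1281 to 2845 with a library left out, and of the 51 genes of the wider lists 16, or 7 to 16 with a library left out, each with fewer libraries. The 51 gave 24 calls with DESeq2's Wald test. The ratios kept their direction in all 56 values under alternatives, and 7 to 8 of 8 did not overlap. Over all genes the median log2 fold change lay between -0.05 and -0.01 in every setting. Upper-quartile factors gave 1347 genes higher and 1297 lower, against 1455 and 1125. Same-numbered libraries deviated together with correlations of 0.19, 0.26 and -0.05. Differently numbered libraries were not compared in this way, so these values do not settle whether the replicate numbers pair the samples. The fit with the replicate block called 2514 genes and 6 of the 10 members. Counts near those of *Cnn1*, 16 to 54 per library, limit what can be read from it.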
